A study of Homo sapiens with 6 samples.

Results

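IFI6, IFI27, IFI35, IFI44, IFI44L, IFI16, XAF1, MX1 and MX2 are interferon-stimulated genes (ISGs), and they are described here by the histone marks at their transcription start sites (TSSs). They are 9 of the 24135 annotated genes used, with 125 of the 168927 TSS positions. TSS positions of a gene that lay at most 500 bp apart were joined into groups, which gave 46 groups for the 9 genes and 78128 for all genes. The genes were chosen by name, not by a measured value, but interferon genes, IFI6 among them, had already been named by the study from these libraries, so their direction of change is not independent evidence. H3K27ac and H3K4me3 were measured by chromatin immunoprecipitation-sequencing (ChIP-seq) in HSC3, an established oral squamous cell carcinoma (OSCC) cell line. Cells carried either a control siRNA (siCONT) or an siRNA against the long noncoding RNA DLEU1 (siDLEU1, the siDLEU1-2 of the paper) for 72 h. There was 1 library for each siRNA and mark, so differences are given without a test, and replicate error is unknown.

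Type I interferon binds its receptor, and the kinases JAK1 and TYK2 then activate a transcription factor complex. This complex, which holds STAT2 and IRF9, binds the interferon-stimulated response element (ISRE) in the promoters of ISGs, where repeated GAAA cores are read. Interferon gamma acts through another element, the gamma-activated site (GAS). H3K4me3 marks the first nucleosomes of active or poised promoters, and H3K27ac marks active promoters and enhancers. Neither mark is a measure of transcript level.

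Repeated GAAA cores, as in the ISRE, are shown first for 8 promoters, since their position relative to the marked regions is described below. The stretches are read from GRCh37 (hg19) 5′ to 3′ on the strand of the gene, within 250 bp upstream and 50 bp downstream of the canonical TSS, and run up to 12 bases past the matches. Capitals mark GAAA, any 2 bases or any 1 base, and GAAA again, or the same letters on the opposite strand, TTTC and TTTC.
IFI6, minus strand, chr1:27998775-27998871: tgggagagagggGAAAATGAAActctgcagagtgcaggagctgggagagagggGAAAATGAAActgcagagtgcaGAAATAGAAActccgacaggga
IFI27, plus strand, chr14:94576962-94577008: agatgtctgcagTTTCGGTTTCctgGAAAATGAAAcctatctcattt
IFI44L, plus strand, chr1:79085957-79086081: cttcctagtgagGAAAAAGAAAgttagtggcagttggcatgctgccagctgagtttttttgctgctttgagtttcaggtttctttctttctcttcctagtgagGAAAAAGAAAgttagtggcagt
IFI44, plus strand, chr1:79115444-79115482: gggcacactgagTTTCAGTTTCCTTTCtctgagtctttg
MX1, plus strand, chr21:42798041-42798070: ccaggagctaggTTTCGTTTCtgcgcccgg
IFI35, plus strand, chr17:41158773-41158802: agggatttcacgGAAATGAAAgtggaagca
IFI16, plus strand, chr1:158979631-158979663: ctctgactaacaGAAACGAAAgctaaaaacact
XAF1, plus strand, chr17:6659348-6659377: ccttgcctgcaaGAAACGAAActcaaccga

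The core with 2 bases between the repeats was searched first and was found in 4 of the 8 promoters searched, those of IFI6, IFI27, IFI44 and IFI44L, against 3.43% of all 24135 promoters of the same 300 bp. After the sequences had been read, the core with 1 base between was added. It was found in 5 of the 8 promoters and in 3.12% of all promoters. With either spacing all 8 promoters held a match, against 6.19% of all promoters, but the second spacing was chosen from these same sequences. This contrast is therefore not an even one. IFI35, IFI16, XAF1 and MX1 held only the core with 1 base between, and an ISRE match below means either spacing. ISGs are known for this element, so the matches describe the promoters and are no result of the knockdown. The GAS letters TTCNNNGAA were found in 2 of the 8 promoters, IFI27 and IFI35, against 6.87% of all promoters. The IFI6 promoter held 3 matches and those of IFI27, IFI44, IFI44L and MX1 held 2 each. For IFI35, XAF1 and MX1 the matches lay in annotated exons, so only a short stretch is shown, and the second MX1 match is not. The second IFI44L match also lay in an exon, which takes up 15 bases of the stretch shown.

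Peak regions were called by the authors in each library separately. A fold enrichment is set against the local background of its own library, so each region is given here by its percentile rank within its list, from 100 for the region with the highest fold enrichment to 0 for no region. A window of 1 kb on either side of each TSS was examined, and a region counted when it overlapped the window by at least 1 bp. The strongest region in any window of a gene stands for the gene. The lists held 19705 and 17672 H3K27ac regions and 58582 and 56943 H3K4me3 regions in siCONT and siDLEU1 cells. The number of fragments at each summit was solved from the fold enrichment and p of the region. Its median was 75 and 68 for H3K27ac and 47 and 41 for H3K4me3, and the libraries came to between 21.5 and 29.4 M reads if the genome is taken as 2.7 Gb. In the siDLEU1 H3K27ac list, the weakest region at the genome-wide background had 0.646 fragments per M reads, and in the siCONT list 0.605. For H3K4me3 these values were 0.627 and 0.598. A gene without a region is therefore below the calling threshold, and its mark may be present at a lower level. All 10 markers of squamous epithelium examined had regions of both marks in both siRNAs. Of 6 markers of leukocytes, endothelium and fibroblasts that were found, only COL1A1 had an H3K27ac region.

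H3K27ac was lower in percentile rank in siDLEU1 cells at all 9 genes. In a bulk culture, fewer marked cells and less mark per cell cannot be told apart. In siCONT cells every gene had an H3K27ac region at a TSS. In siDLEU1 cells 5 genes, IFI6, IFI44, IFI44L, XAF1 and MX2, had no region left, against 5.61% of the 13592 genes with H3K27ac in siCONT cells. The percentile rank was lower at 9 of 9 genes (62.8% of all genes) and fell by at least 20 points at 7 (19.3% of all genes). None was higher (37.2%) or rose by at least 20 points (6.96%). The median rank of the 9 genes was 54.6 in siCONT cells and 0 in siDLEU1 cells, with a median change of −36.6 points against −4.60 over all genes. For a gene without a siDLEU1 region the change is its siCONT rank with a minus sign, set by the calling threshold. The median of −36.6 points, at MX2, is such a value. Weak regions were lost more often in general, as 55.1% of genes ranked below 25 in siCONT cells lost their region, 7.62% of those between 25 and 50, 0.37% of those between 50 and 75 and 0.1% of those above 75. Among the 9 genes, XAF1 was in the lowest of these classes, IFI44, IFI44L and MX2 in the next and IFI6 in the class between 50 and 75.

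H3K4me3 was lower in percentile rank at 8 of the 9 genes. Each had an H3K4me3 region in siCONT cells, and the median rank was 86.6. Regions at TSSs rank higher in the H3K4me3 list in general, with medians over all genes of 83.2 for H3K4me3 and 71.0 for H3K27ac. In siDLEU1 cells XAF1 and MX2 had no region at a TSS, 2 of 9 genes against 3.24% of the 13669 genes with H3K4me3. The rank was lower at 8 genes (48.1% of all genes) and fell by at least 20 points at 5, IFI6, IFI27, IFI44L, XAF1 and MX2 (8.93% of all genes). IFI44 alone was higher (51.9%), and none rose by at least 20 points (7.07%). The median change was −54.7 points against 0.25 over all genes. This median is the change at XAF1, which had no region in siDLEU1 cells. IFI35 and IFI16 kept ranks of 87.4 and 91.8. In fragments per M reads, given below, the ratio of siDLEU1 over siCONT was 0.410 at IFI44 and 1.06 at IFI16.

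**Figure D1:**
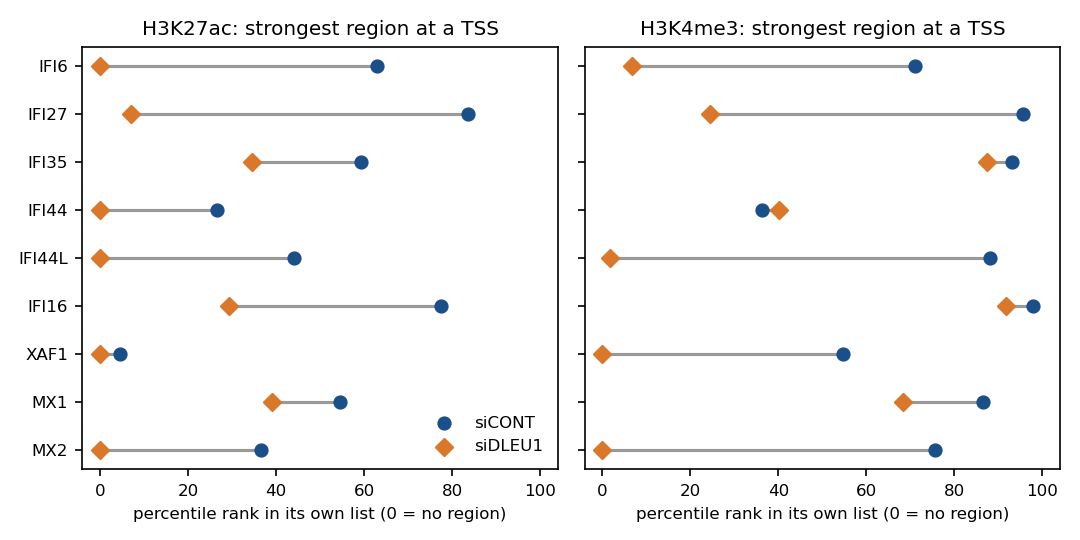
Percentile rank of the strongest H3K27ac (left) and H3K4me3 (right) region at a TSS of each gene within its own list, where 0 is no region. Circles are the siCONT library and diamonds the siDLEU1 library, 1 each. The diamond lies left of the circle at 9 genes for H3K27ac and at 8 for H3K4me3, the exception being IFI44 at 36.2 and 40.2.

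Counted by TSS group, 15 of the 46 groups had an H3K27ac region in siCONT cells and 9 of these had none in siDLEU1 cells, against 7.72% over all groups. The rank was lower at 13 of the 15 (64% of all groups) and fell by at least 20 points at 10 (21.5%). It was higher at 2 groups (36%), both at the upstream TSSs of MX1, and rose by at least 20 points at none (6.83%). For H3K4me3, 17 groups had a region in siCONT cells, 5 had none in siDLEU1 cells (6.86%), 15 were lower (50.8%) and 8 fell by at least 20 points (12.6%). The 2 groups with a higher H3K4me3 rank (49.2%) were the canonical TSS of IFI44 and a TSS inside IFI16, and neither rose by 20 points (7.88%). No group without a region in siCONT cells gained one for either mark, against 0.169% of such groups for H3K27ac and 1.65% for H3K4me3, so the remaining 31 and 29 groups had no called region of that mark in either siRNA. Groups of a gene can share a region and are not replicates. The 9 H3K27ac losses count the same XAF1 region at 2 groups. They also count, at other TSSs of IFI27 and IFI16, regions that were still called at the canonical TSS in siDLEU1 cells. At that IFI16 TSS the siCONT region reached the window by 10 bp only. For H3K4me3 the losses likewise count the XAF1 region at 2 groups and the IFI27 region at another TSS.

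**Figure D2:**
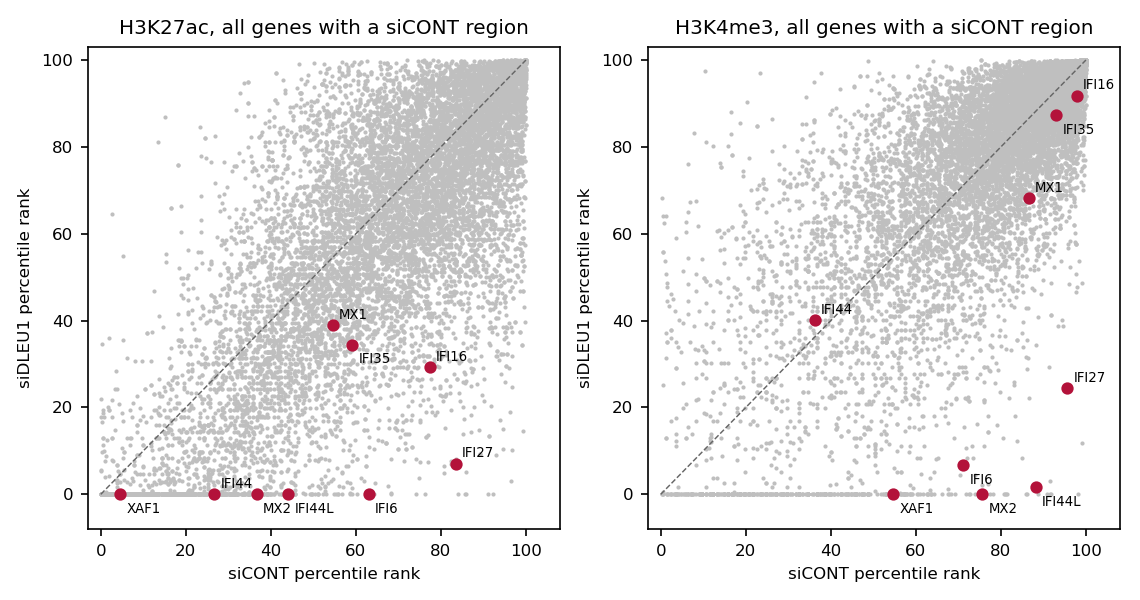
Percentile rank in siCONT (x axis) and siDLEU1 (y axis) of the strongest region at a TSS, for all genes with a region in siCONT (grey, 13592 genes for H3K27ac and 13669 for H3K4me3) and the 9 genes (red). Points on the dashed line have the same rank in both lists. All red points lie below the line for H3K27ac, and IFI27 falls furthest, from 83.5 to 7.08.

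IFI27 and IFI6 are small hydrophobic membrane proteins of the same family and have roles in apoptosis and antiviral defence. IFI27 spans chr14:94571182-94583032 on the plus strand, with the canonical TSS at 94577161. Its H3K27ac rank was 83.5 in siCONT cells, the highest of the 9 genes, and 7.08 in siDLEU1 cells. By fold enrichment only 0.132% of genes with H3K27ac had a larger fall. Ranked by fragments the change at IFI27 was −44.4 points, smaller than the −53.3 at IFI6. In siCONT cells the region ran from 94577057 to 94578526, over exons 1 and 2, and was 1470 bp wide. In siDLEU1 cells it ran from 94577172 to 94577506, within 345 bp downstream of the TSS and no longer over it, and was 335 bp wide. The summits lay 119 and 116 bp downstream of the TSS, so the region narrowed around the same place. The number of fragments at the summit was 130 and 59. H3K4me3 behaved alike at IFI27, with a rank of 95.6 and 24.4, a width of 2305 and 705 bp and 158 and 49 fragments. In siCONT cells this region reached 957 bp upstream of the TSS, over both ISRE matches, and in siDLEU1 cells 32 bp upstream, short of them. A second, weak H3K4me3 region of rank 8.95, starting 1639 bp downstream of the TSS, was called only in siCONT cells. The local background was 2 fragments in both siDLEU1 regions of IFI27 and under 1 in both siCONT regions, which lowers the siDLEU1 ranks, so the fragment numbers are given again below.

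IFI6 spans chr1:27992575-27998723 on the minus strand, and its 4 TSS positions form 1 group. An H3K27ac region over exon 1, chr1:27998159-27998745, ranked 63.0 with 80 fragments in siCONT cells. The siDLEU1 list held no H3K27ac region within the gene or 10 kb beyond it. A larger fall was seen at 0.464% of genes. H3K4me3 took the form of 2 regions in siCONT cells, on either side of a gap. The downstream region, chr1:27998355-27998704, reached up to the TSS, ranked 71.1 and had 61 fragments. The upstream region, chr1:27998951-27999489, ranked 41.2 and had 69 fragments. All 3 ISRE matches of IFI6 lay in the gap between them. In siDLEU1 cells the downstream region was absent, and the upstream region had shrunk from 539 to 197 bp with 24 fragments and a rank of 6.77. The gene-level fall from 71.1 to 6.77 is therefore measured at different places. At the upstream place alone the rank was 41.2 and 6.77.

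IFI44L and IFI44 are paralogous cytoplasmic proteins, whose genes follow each other on the plus strand, at chr1:79085587-79111830 and chr1:79115481-79129763. At IFI44L the H3K27ac region of siCONT cells, chr1:79086101-79087282, ranked 44.1 with 55 fragments and was 1182 bp wide. No H3K27ac region was called in siDLEU1 cells. The H3K4me3 rank of IFI44L was 88.2 and 1.71, the largest fall in H3K4me3 rank among the 9 genes by fold enrichment, and 0.0512% of genes with H3K4me3 fell further. Ranked by fragments XAF1 fell slightly more (−78.0 against −77.1), and with only regions of a −log10 q of 10 or more IFI27 did (−89.9 against −73.0). Its width was 2102 and 186 bp and its fragment number 98 and 20. The region of siCONT cells began at −1140 bp from the TSS and covered both ISRE matches, which lie in 2 copies of the same stretch of letters shown above. The remnant in siDLEU1 cells began 6 bp upstream of the TSS and covered neither.

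At IFI44 the H3K27ac region of siCONT cells, chr1:79115495-79117390, was 1896 bp wide over exons 1 and 2, the widest of the strongest H3K27ac regions of the 9 genes. It ranked 26.7 with 48 fragments, and none was called in siDLEU1 cells. For H3K4me3 the ranks of IFI44, 36.2 and 40.2, and its fragments, 87 and 28, moved in opposite directions. The local background was 3 fragments in the siCONT region and 0.463, the genome-wide value, in the siDLEU1 region, and fold enrichment divides by it. The width of the H3K4me3 region was 2388 and 238 bp, and the siDLEU1 list held another remnant of 286 bp inside the same stretch, 1628 bp downstream of the TSS. Ranked by −log10 p the change at IFI44 was −16.9 points, and ranked by fragments −51.3. The rise in rank at IFI44 thus holds for fold enrichment only.

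MX1 and MX2 are dynamin-like GTPases that restrict viruses, MX1 influenza virus and MX2 HIV-1 among others. MX2 and MX1 follow each other on the plus strand, at chr21:42733926-42781320 and chr21:42791947-42841998. At the TSS of MX2 both marks were called in siCONT cells and neither in siDLEU1 cells. Its H3K27ac region, chr21:42733877-42734572, ranked 36.6 with 46 fragments in siCONT cells. Its main H3K4me3 region, chr21:42733899-42734643, ranked 75.6 with 68 fragments, and a weak region upstream, chr21:42733457-42733695, ranked 3.64. None of these had a counterpart in siDLEU1 cells. Inside MX2 a weak H3K4me3 region that began 4323 bp downstream of the canonical TSS in siCONT cells was present in both lists, with ranks of 8.81 and 12.9. In siDLEU1 cells another lay 4946 bp downstream, at rank 28.2.

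MX1 has annotated TSSs at 42791947 and 42793256 besides the canonical TSS at 42798166, and they differed in H3K27ac. At the canonical TSS the H3K27ac rank was 54.57 in siCONT cells and 20.05 in siDLEU1 cells, with 93 and 46 fragments and a width of 1185 and 413 bp. At the upstream TSSs it was 33.1 and 39.0, with 42 and 51 fragments, which is 1.96 and 1.73 fragments per M reads, so the rank was higher and the depth-scaled number lower. The depth-scaled difference was smaller than at the median of all genes, a ratio of 0.579, but it compares different places. The upstream summits lay at −5926 and −5478 bp from the canonical TSS. A weaker siCONT region, with its summit at −5453 bp, had 24 fragments, or 1.12 per M reads, against 1.73 in siDLEU1 cells. At that place the depth-scaled number was thus not lower. The strongest H3K27ac regions of MX1 in the lists therefore lay at different TSSs, and the gene-level change of −15.6 points is smaller than the change of −34.5 at the canonical TSS. H3K4me3 at the canonical TSS ranked 73.6 with 86 fragments in siCONT cells and was not called in siDLEU1 cells, although an H3K27ac region was still called there. At the upstream TSSs H3K4me3 was called in both, with ranks of 86.6 and 68.2 and 93 and 52 fragments. There the region of 2015 bp in siCONT cells was replaced by regions of 399 and 354 bp.

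IFI16 is a sensor of double-stranded DNA of the PYHIN family. It spans chr1:158969758-159024945 on the plus strand, with 7 TSS groups, of which 5 had a region of at least 1 mark. Its marks diverged. H3K27ac at the canonical TSS ranked 77.4 and 29.3, with 105 and 58 fragments, and the region of 1586 bp in siCONT cells was replaced by regions of 614 and 569 bp. H3K4me3 at the same TSS ranked 97.9 and 91.8, with 158 and 131 fragments, and was the highest rank of the 9 genes in both lists. At the most upstream TSS, 158969758, the H3K27ac region of siCONT cells ranked 15.4 and had no counterpart in siDLEU1 cells, while H3K4me3 ranked 88.8 and 69.6. The covered length of H3K4me3 over all windows of IFI16 was 4682 and 4257 bp, with a ratio of 0.909, the ratio nearest to 1 among the 9 genes.

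IFI35 is a leucine zipper protein that associates with NMI in cytokine signalling. The gene spans chr17:41158757-41166473 on the plus strand. H3K27ac at its canonical TSS ranked 59.2 and 34.5, with 101 and 63 fragments and a width of 702 and 395 bp. H3K4me3 ranked 93.1 and 87.4, with 155 and 115 fragments and a width of 1036 and 627 bp. IFI35 was thus similar to IFI16 in that H3K27ac fell by 24.7 points and H3K4me3 fell by 5.68 points. IFI35 and MX1 were the only genes of the 8 searched whose ISRE match lay inside an H3K27ac region, in both lists.

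XAF1 binds the apoptosis inhibitor XIAP and opposes it. The gene spans chr17:6658766-6678966 on the plus strand. In siCONT cells its H3K27ac region, chr17:6659372-6660122, had 54 fragments but ranked only 4.61, because the local background was 3 fragments. Its H3K4me3 region, chr17:6658970-6660197, had 87 fragments and ranked 54.7. Neither mark was called in siDLEU1 cells. The weakest H3K27ac region of the siDLEU1 list at a local background of 3 had 1.67 fragments per M reads, and the XAF1 region of siCONT cells had 2.51. Over all genes with H3K27ac in both lists, the median ratio of siDLEU1 over siCONT in this unit was 0.579. A fall by that ratio from 2.51 would also end below 1.67, so this missing region does not by itself show a larger fall. With H3K27ac regions ranked by fragments, the change at XAF1 was −35.8 points in place of −4.61.

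**Figure D3:**
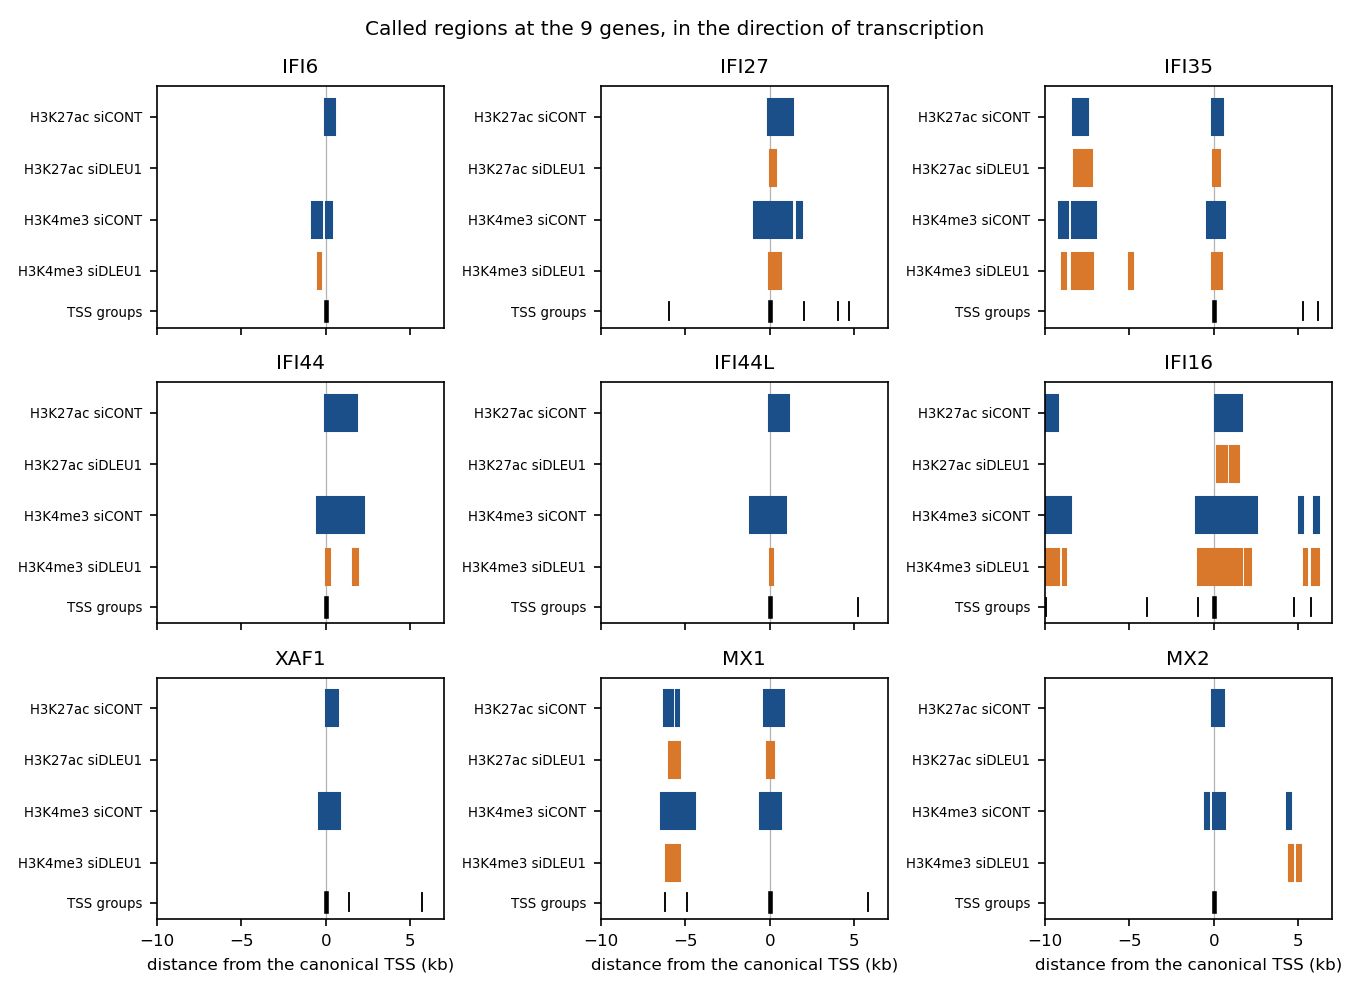
H3K27ac and H3K4me3 regions in siCONT (blue) and siDLEU1 (orange) cells at the 9 genes, as distance from the canonical TSS in kb in the direction of transcription, from 10 kb upstream to 7 kb downstream. Ticks are TSS groups, the thick tick the canonical one. Most siDLEU1 regions are narrower than those of siCONT cells or missing, while the H3K27ac regions at the upstream IFI35 flank are 874 and 1014 bp wide.

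In the siCONT regions, H3K27ac lay mostly downstream of the canonical TSS. Within 1 kb of it, regions covered 722 bp upstream and 7277 bp downstream, summed over the 9 genes, and 217 and 1604 bp in siDLEU1 cells. H3K4me3 covered 5512 bp upstream and 7158 bp downstream in siCONT cells, and 1206 and 2542 bp in siDLEU1 cells. The siDLEU1 over siCONT ratio of H3K4me3 was thus 0.219 upstream and 0.355 downstream, where over all genes it was 0.949 and 0.953. For H3K27ac the ratios were 0.301 and 0.220, against 0.670 and 0.847. The canonical TSS itself lay inside an H3K27ac region at 7 genes in siCONT cells and at 2 in siDLEU1 cells, and inside an H3K4me3 region at 9 and 4. Over all 24135 genes these numbers were 9485 and 6174 for H3K27ac, and 7270 and 8260 for H3K4me3. Of the 14 ISRE matches, 11 in 7 genes lay inside an H3K4me3 region of siCONT cells and 1 inside one of siDLEU1 cells, at IFI35. For H3K27ac 3 matches lay inside a region in either list. Matches of a gene can lie in the same region, and the share for matches in the promoters of all genes was not computed.

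Over all windows of the 9 genes, H3K27ac covered 10257 bp in siCONT cells and 2561 bp in siDLEU1 cells, a ratio of 0.250, while the ratio over all genes was 0.755. H3K4me3 covered 18116 and 6963 bp, a ratio of 0.384, against 0.918. The covered length was lower in siDLEU1 cells at each of the 9 genes for both marks. Where H3K27ac was still called, the ratio ranged from 0.233 at IFI27 to 0.563 at IFI35. For H3K4me3 it ranged from 0.0885 at IFI44L to 0.909 at IFI16. Covered length moves with how much was called in a library, which is why the ratio over all genes is set beside it.

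**Figure D4:**
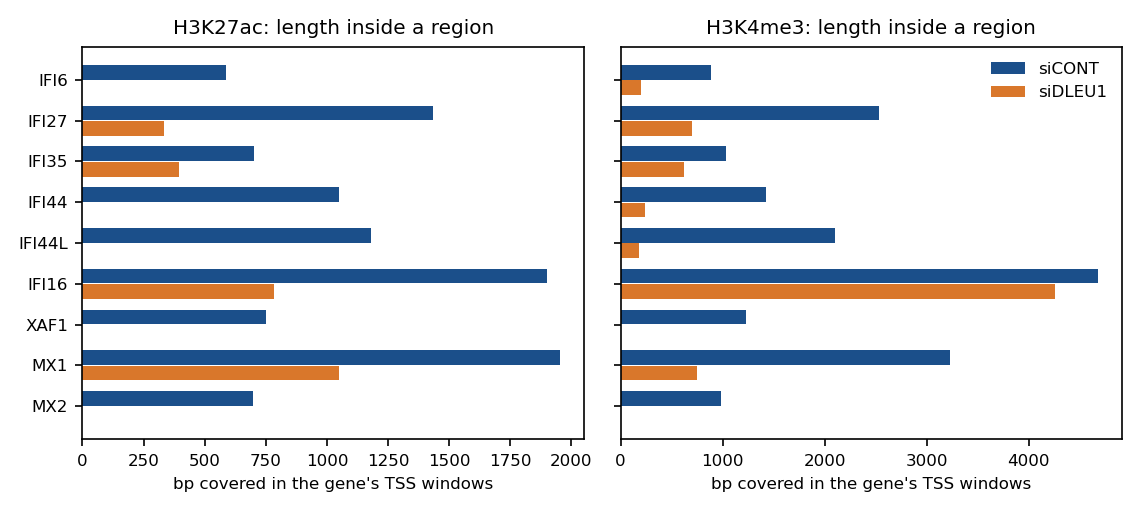
Length inside an H3K27ac (left) or H3K4me3 (right) region, in bp, summed over the TSS windows of each gene, for the siCONT (blue) and siDLEU1 (orange) libraries. Every siCONT bar is longer than its siDLEU1 bar, and a missing orange bar is 0 bp. The bars of IFI16 for H3K4me3, 4682 and 4257 bp, are the closest in proportion.

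The fragment numbers were also set per M reads, a comparison added after the data were seen that does not use the local background. Over all 12829 genes with H3K27ac in both lists, the median ratio of siDLEU1 over siCONT was 0.579, so the mark as a whole was lower in this unit. The 4 ISGs that kept a region lay below that median. The ratio was 0.332 at IFI27 (95% counting interval 0.239 to 0.454), and 0.709% of genes had a lower one. It was 0.401 at MX1 (0.279 to 0.570), 0.403 at IFI16 (0.288 to 0.561) and 0.456 at IFI35 (0.327 to 0.630). The MX1 ratio sets the canonical TSS in siCONT cells against the upstream TSSs in siDLEU1 cells. At the upstream TSSs alone, the strongest regions had 1.96 and 1.73 fragments per M reads, at summits in different places. The weaker siCONT region nearest to the siDLEU1 summit had 1.12, below the 1.73 of siDLEU1 cells. The intervals of IFI27, IFI16 and MX1 exclude the median of all genes, and that of IFI35 includes it. They cover counting error only and not the difference between cultures.

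For H3K4me3 the median ratio over 13226 genes was 1.16, and all 7 ISGs with a region in both lists lay below it. The ratio was lowest at IFI44L, 0.260 (0.152 to 0.424), and only 0.0227% of genes had a lower one. IFI27 followed with 0.395 (0.281 to 0.548), IFI44 with 0.410 (0.258 to 0.634) and IFI6 with 0.501 (0.299 to 0.816). The intervals of these neighbours in the order overlap, so their order is not resolved. MX1 had a ratio of 0.712 (0.497 to 1.01). IFI35, with 0.945 (0.736 to 1.21), and IFI16, with 1.06 (0.832 to 1.34), had intervals that include both 1 and the median of all genes. The ratios of IFI6 for H3K4me3 and MX1 for H3K27ac compare regions at different places, as said above.

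**Figure D5:**
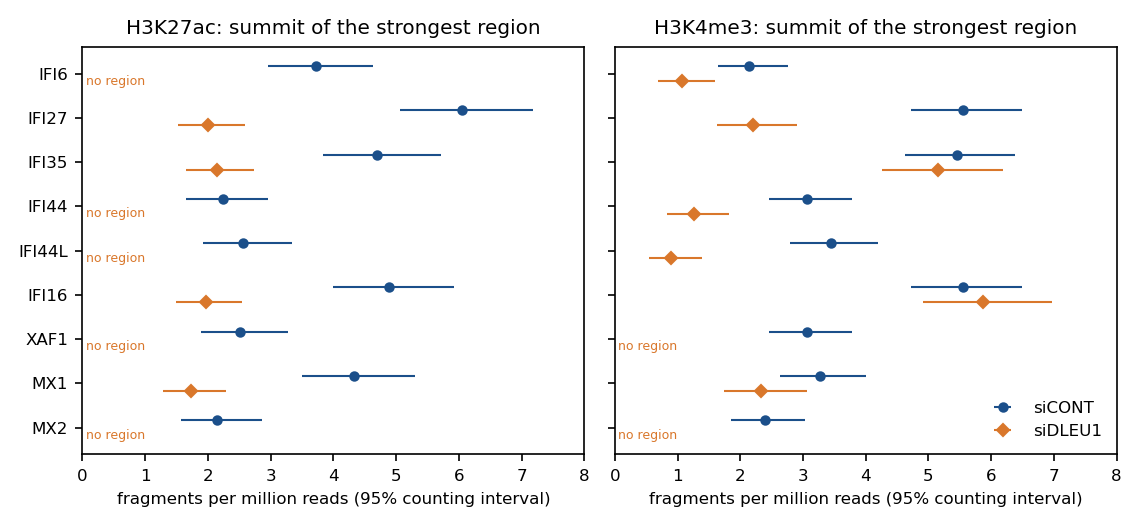
Fragments per M reads at the summit of the strongest H3K27ac (left) and H3K4me3 (right) region of each gene, with 95% Poisson intervals that cover counting error only, for siCONT (circles) and siDLEU1 (diamonds). For H3K4me3 the intervals of IFI35 and IFI16 overlap between the siRNAs, while those of IFI27, IFI44 and IFI44L do not.

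The genes that transmit the interferon signal moved in both directions. Of 11 receptor, kinase and transcription factor genes (IFNAR1, IFNAR2, IFNGR1, IFNGR2, JAK1, JAK2, TYK2, STAT2, IRF9, IRF1 and IRF7), each had both marks in both lists. Their H3K27ac rank was lower at 5 (62.8% of all genes) and higher at 6 (37.2%), with a median change of 2.65 points. IRF7 (from 67.9 to 34.9) fell by at least 20 points (19.3% of all genes). IFNAR1 (from 73.2 to 93.7) and JAK2 (from 56.1 to 95.6) rose by as much (6.96%). These 3 were named after their values were seen. For H3K4me3, 4 of the 11 were lower (48.1% of all genes) and 7 higher (51.9%). None fell (8.93%) or rose (7.07%) by at least 20 points.

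The other ISG effectors examined were ISG15, USP18, OAS1, OAS2, OAS3, OASL, IFIT1, IFIT2, IFIT3, IFIT5, IFITM1, IFITM2, IFITM3, RSAD2, CMPK2, RIGI, IFIH1, DDX60, HERC5, HERC6, BST2, EIF2AK2, SAMD9, SAMD9L, PARP9, DTX3L, PARP14, PLSCR1 and TRIM22. Of these 29, H3K27ac was lower at 23 (62.8% of all genes), with a median change of −21.2 points. It fell by at least 20 points at 15 (19.3%). It rose by as much at 2 (6.96%), which were IFITM3 and PARP14, named after their values were seen. PARP9 and DTX3L, also named after their values were seen, had the same ranks in each list and count as 2 of the falls. H3K27ac was called in siCONT cells and not in siDLEU1 cells at 8 of the 29 (5.61% of all genes). These were OAS1 (siCONT rank 68.3) and OASL (62.8) of the 2′-5′-oligoadenylate synthetase family, RSAD2 and CMPK2, which share 1 region (31.5), the tethering factor BST2 (6.79), SAMD9 (8.11), SAMD9L (29.0) and TRIM22 (38.4). H3K4me3 was present at 26 of the 29 in siCONT cells and was lower at 22 (48.1% of all genes), with a median change of −11.8 points. It was no longer called at BST2, OASL and SAMD9L (3.24% of all genes). The share of genes whose H3K27ac region was no longer called was 5 of 9 and 8 of 29 in these groups and 0 of 11 among the signalling genes. The difference between the groups was not tested. Their median siCONT ranks also differed, at 54.6, 61.2 and 67.9, and weak regions were lost more often in general. XAF1, BST2 and SAMD9 ranked below 25, where 55.1% of all genes lost their region, and no signalling gene ranked there.

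Regions near the 9 genes but outside them were also compared, within 100 kb. H3K27ac regions of siCONT cells near IFI35 were lower in rank in siDLEU1 cells at 4 of 8, with a median change of 1.24 points. Those near IFI6 were lower at 2 of 4, with a median of −9.36, and those near XAF1 at 1 of 2, with a median of 1.45. The 1 near IFI16 was lower, with a change of −5.88. H3K4me3 regions near IFI35 and IFI6 were lower at 3 of 8 and 3 of 9, with medians of 3.31 and 6.34. Near IFI27, 4 of 5 neighbouring H3K27ac regions and 11 of 13 H3K4me3 regions were lower, with medians of −7.03 and −18.4 points. Near IFI16, 7 of 8 neighbouring H3K4me3 regions were lower, with a median of −11.4. Near XAF1, 4 of 12 H3K4me3 regions were lower and the median change was 21.3. The shares over all regions are not given here, and the part of a local shift in the falls at IFI27, IFI16 and IFI6 was not tested. Apart from those of the 9 genes, no H3K27ac region of siCONT cells lay within 100 kb of IFI44, IFI44L, MX1 or MX2.

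By the 4 percentile ranks together, the protein-coding genes nearest to IFI27 were UBXN8, TRIM68 and ZNF649, at Euclidean distances of 16.8, 17.1 and 18.5 percentile points over the 4 libraries. Their H3K27ac ranks were 80.8 and 6.50, 94.6 and 10.5, and 89.0 and 14.9 in siCONT and siDLEU1 cells. This is a description of likeness in 4 libraries only.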

How the data were processed

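Reads from an Ion Proton were aligned by the authors with bowtie2 (hg19), peaks were called with MACS2 in each ChIP-seq library of HSC3 cells, and the 4 deposited peak lists were used. Each list gives the fold ratio over local background, the −log10 p and the −log10 q of a peak as MACS2 gave them to the authors. The display score that the authors' lists also hold was left out. The version and settings of MACS2 are not given in the sources used here, nor is the control library used for calling. The 2 input libraries were not analysed here.

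Regions on chromosomes 1 to 22 and X were set against all TSSs of GENCODE (GRCh37) for 24135 genes, 19140 of them protein-coding and 4995 lncRNA genes. Values are given by rule for the 9 members, for genes of the signalling and effector lists with an H3K27ac region in siCONT and none in siDLEU1, and for the 3 genes nearest to IFI27, the member with the largest H3K27ac fall by fold enrichment. Other genes of these lists and COL1A1 are named as list members or, where the text says so, after their values were seen. DDX58 was matched as RIGI. A gene of the signalling list and a promoter sequence are not reported here, and counts leave them out. The members and gene lists were chosen with earlier results of these data known. Fragments at a summit were solved from fold enrichment and p for 100% of regions, each within 0.02 of a whole number of fragments. On simulated lists, 100% of 7938 regions were recovered exactly. The simulated lists were made with the formula that was then solved, and held no region as weak as the weakest real ones. They therefore cannot show that the authors' run followed this formula. Intervals are 95% Poisson intervals, or exact intervals of a ratio of counts, and cover counting error only. With 1 library per group no test was run. Alternatives were other thresholds, windows, overlaps, TSS units and ranked quantities. Python 3.11.15, numpy 2.4.6, pandas 2.3.3, scipy 1.17.1 and matplotlib 3.10.9 were used.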

Additional observations from a re-analysis of the deposited data

How the results depend on the processing

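No paired analysis was possible because each siRNA has 1 library for each mark. The direction of the H3K27ac change held at all 9 genes under ranking by −log10 p or by fragments. At the 5 genes without a siDLEU1 region it could not be otherwise. With 3 kb windows the gene-level changes were the same as in the main setting. At a −log10 q of at least 10 the direction could not be checked. The siCONT region of 8 genes reached it, but no H3K27ac region at their TSSs in siDLEU1 cells did. The H3K4me3 rank of IFI44 rose by 3.95 points by fold enrichment but changed by −16.9 by −log10 p and −51.3 by fragments, where the local background, 3 fragments in siCONT, counts less or not at all.

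For H3K27ac, counting 1 TSS per gene gave 5 lost of 9, where the main setting gave 9 of 15 groups. Every TSS position gave 41 lost and 75 lower of 87. The covered ratio was 0.298 with 500 bp windows and 0 at a −log10 q of at least 10. For H3K4me3, the main setting gave 5 lost of 17 groups. Lost groups numbered 8 of 14 at a −log10 q of at least 10 and 8 of 21 with 3 kb windows. They numbered 8 of 17 with an overlap of 200 bp, 3 of 9 with 1 TSS per gene and 37 of 89 with every TSS position. Lower ones numbered 8 of 9 with 1 TSS per gene and 82 of 89 with every TSS position. The covered ratio was 0.296 with 1 TSS per gene and 0.308 at a −log10 q of at least 10. The shares over all genes under these settings are not given here. Counts per TSS unit differ because the number of units differs, and for the other shifts the cause was not tested. With either motif spacing 8 promoters held a match in place of 4. The other 45 of 60 alternatives stayed within 1.5 times the count or 10% of the ratio. Among these, 12 of 12 H3K27ac groups were lost at a −log10 q of at least 10, a larger share than the 9 of 15 in the main setting. Lost here means a region called in siCONT and none in siDLEU1, and whether depth plays a part was not tested.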
